A study of Mus musculus with 12 samples.

Results

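MHC class II molecules carry peptides from internalised material to the cell surface, where CD4 T cells read them. *H2-Aa* and *H2-Ab1* encode the alpha and beta chains of the mouse I-A molecule, and *H2-Eb1* encodes the beta chain of I-E. *Cd74* encodes the invariant chain, which fills the peptide groove during assembly, and *H2-DMa* and *H2-DMb1* encode the chains of H2-DM, the chaperone that swaps the remnant of the invariant chain for a peptide. *Ciita* encodes the transactivator that these genes need for transcription. Resident airway macrophages (AMs) are known for low class II levels compared with dendritic cells.

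These 7 genes were chosen by name, and all 7 of the 20551 genes in the count table were found and passed the filter on low counts. RNAseq was available for 12 libraries of AMs in 4 groups of 3: WT in medium, WT with LPS, *Scnn1b*-Tg in medium and *Scnn1b*-Tg with LPS. All mice were on the C57BL/6 background, and the methods give an age of 6 weeks for animals used in sequencing. The *Scnn1b* transgene is driven by a club cell promoter, which directs its expression to the airway epithelium, and the animals serve as a model of mucus obstruction. *Scnn1b* itself was at or below 0.755 CPM in every library (CPM are counts scaled to library size), and at or below the counting floor in 5 of 12. The sources differ on the cells: the labels describe pooled lavages of 3 to 4 animals from which adherent cells were kept, whereas the study's methods describe AMs sorted as CD45+ Siglec-F+ CD11c+, a gate that would remove most other cell types. The cells were held for 12 h in medium or with 100 ng/ml LPS from *Pseudomonas aeruginosa*. Libraries of 1 genotype that share a number (WT 16, 17 and 18, *Scnn1b*-Tg 17, 18 and 19) are called a pool below, although the labels do not state that both wells of a number held the same lavages. Numbers 16 and 17 form batch 1 and numbers 18 and 19 form batch 2, so the batch 1 *Scnn1b*-Tg animals are a lone pool.

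Libraries held 48191248 to 60896505 counts. A gene was treated as at the floor with 8 or fewer deposited counts, which is 0.137 to 0.163 CPM. The labelled cell type was borne out by its markers: all 12 AM markers, among them *Siglecf*, *Marco* and *Chil3*, lay above the floor in every library. They summed to between 8890 and 17600 CPM, most of it *Chil3* at 6660 to 14400 CPM. Defining genes of other class II-bearing cells were scarce. *Ms4a1* (B cells) was at or under the floor in 12 of 12 libraries and *Flt3* (dendritic cells) in 11 of 12, whereas *Cd22*, also listed for B cells, ran from 81.1 to 127 CPM. In such bulk samples, a higher class II level in every cell and a larger share of class II-high cells cannot be told apart.

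The proximal promoters of class II genes carry an X box, bound by the RFX complex and CREB, followed by a Y box, bound by NF-Y, and CIITA docks on the assembled factors. Promoter windows of 300 bases (250 before to 50 after the start, RefSeq, build GRCm38.p6) were searched because 3 of the members shared these letters while differing in their response to LPS. The table matched 4 of the 7 members: *H2-Aa*, *H2-Eb1*, *H2-DMb1* and *H2-DMa*. The letters searched, chosen after the members' windows had been seen, were GNAAC and TGANG 2 or 3 bases apart for X and TGATTGG for Y, on both strands, with X before Y and at most 30 bases between them. The stretches from *H2-Aa* and *H2-Eb1* have X and Y in capitals, on the strand of the gene.
H2-Aa: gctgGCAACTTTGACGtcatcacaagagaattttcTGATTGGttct
H2-Eb1: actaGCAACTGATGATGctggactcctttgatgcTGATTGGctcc

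The *H2-Aa* stretch lies at chr17:34287863-34287908 on the minus strand and ends its Y letters 43 bases before the start. The *H2-Eb1* stretch lies at chr17:34305772-34305816 on the plus strand and ends its Y letters 54 bases before the start. *H2-DMb1* carried the X letters GTAACTGATGATG and, 18 bases on, the same Y letters, 56 bases before its RefSeq start. X followed by Y was present in 10 of 32851 windows (0.0304%), and 4 of these 10 belonged to class II genes: *H2-Aa*, *H2-Eb1*, *H2-DMb1* and *H2-Ob*. The letters were set with the windows of *H2-Aa*, *H2-Eb1* and *H2-DMb1* in view, so their hits were fixed by that choice. Only *H2-Ob* lies outside the members, and the share is no measure of enrichment. The X letters alone were held by 1.81% of windows and the Y letters alone by 7.82%. Neither of the 2 *H2-DMa* windows held the X or the Y letters, which says only that these letters are not in those windows.

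In medium, WT AMs held far more invariant chain and H2-DM mRNA than class II chain mRNA. Compared per kb of exon, the WT medium level was highest for *Cd74* at 53.0 ± 13.9 CPM per kb (SD, n = 3). *H2-DMb1* followed at 22.4 ± 2.67 CPM per kb (SD, n = 3) and *H2-DMa* at 12.6 ± 1.44 CPM per kb (SD, n = 3). The level of *H2-Ab1* was 4.00 ± 0.875 CPM per kb (SD, n = 3). *H2-Eb1*, at 1.57 ± 0.0843, and *H2-Aa*, at 1.42 ± 0.222 CPM per kb (SD, n = 3), were neighbours that did not differ beyond their spread. *Ciita* was close to absent, with 10, 0 and 0 counts in the 3 WT medium libraries.

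**Figure D1:**
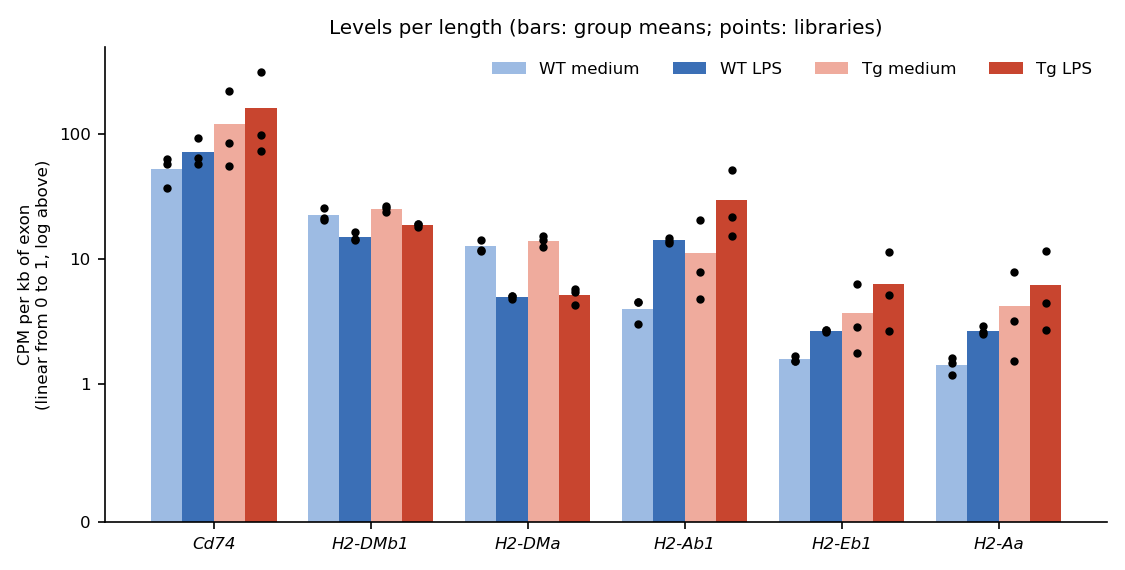
Levels per length of 6 class II genes in the 4 groups, in CPM per kb of merged exon (vertical axis linear from 0 to 1 and logarithmic above). Bars are means of 3 libraries and points are libraries; *H2-DMa* stood above *H2-Ab1* in WT medium (12.6 against 4.00) and below it with WT LPS (4.96 against 14.1).

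The order changed in LPS-treated WT AMs. *H2-Ab1* reached 14.1 ± 0.634 CPM per kb (SD, n = 3) and then did not differ beyond the spread from *H2-DMb1*, at 15.1 ± 1.31 CPM per kb (SD, n = 3). *H2-DMa* dropped to 4.96 ± 0.141 CPM per kb (SD, n = 3), and *H2-Aa* and *H2-Eb1* both stood at 2.67 CPM per kb. In *Scnn1b*-Tg AMs the class II chains varied widely between pools: with LPS, *H2-Ab1* was at 29.6 ± 19.4 and *H2-DMb1* at 18.6 ± 0.540 CPM per kb (SD, n = 3), and their order differed between libraries. In each *Scnn1b*-Tg LPS library *Cd74* was highest, and *H2-Ab1* (51.6, 21.7 and 15.4 CPM per kb) lay above *H2-Aa* (11.6, 4.43 and 2.69 CPM per kb). In medium, the *H2-Ab1* level of pool 17, 20.6 CPM per kb, also exceeded its *H2-DMa* level, 12.5 CPM per kb. These levels use the merged exons of GENCODE M21 on mm10. *H2-Ab1* (chr17:34257689-34269419, plus strand), whose merged exons span 2568 bp but whose longest transcript has 1212 bp, depends most on that choice. For *H2-DMb1* these lengths are 1681 and 1404 bp. The match of *H2-Ab1* with *H2-DMb1* in WT LPS and their mixed order in *Scnn1b*-Tg LPS thus hold for merged exons only.

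The comparison of LPS with medium asks how AMs of each genotype change their transcripts on a bacterial stimulus. The class II genes split. The class II beta chain gene *H2-Ab1* rose in both genotypes and the 2 chaperone genes fell in both. *H2-Aa*, *H2-Eb1* and *Cd74* were higher in every pool by smaller steps, which were not called between the groups over all 12 libraries. With each pool compared with itself these steps were called, which assumes that both libraries of a pool share their lavages. In edgeR's quasi-likelihood test with Benjamini-Hochberg adjustment, 1 of 7 members was higher and 2 were lower with LPS in WT, where 15.2% of all 13729 genes tested were called higher and 15.7% lower. In *Scnn1b*-Tg, 1 of 7 was higher and 2 were lower, against 18.8% and 17.8% of all genes. With 7 genes these counts do not stand apart from the background, so the genes are described one by one.

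*H2-Ab1* gave 7.68, 11.5 and 11.6 CPM in WT medium and 35.9, 34.7 and 37.9 CPM in WT LPS. In *Scnn1b*-Tg it gave 53.0, 20.2 and 12.3 CPM in medium and 133, 55.8 and 39.5 CPM with LPS (pools 17, 18 and 19). The WT groups were far apart, whereas pool 17 in medium overlapped the LPS range of the *Scnn1b*-Tg group. The rise was 3.50-fold in WT (log2 fold change 1.81, SE 0.44, edgeR adjusted p = 0.00966) and 2.71-fold in *Scnn1b*-Tg (log2 fold change 1.44, SE 0.43, edgeR adjusted p = 0.0225). Each of 6 pools rose, by 2.50-fold to 4.68-fold. The *Scnn1b*-Tg call was lost without the medium library of pool 18 (edgeR adjusted p = 0.0741), without that of pool 19 (0.0802), without the LPS library of pool 17 (log2 fold change 1.01, 0.148), and without both libraries of pool 18 (0.109). The WT call was lost without the LPS library of pool 18 (log2 fold change 1.35, edgeR adjusted p = 0.0705).

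*H2-Aa* (chr17:34282744-34287823, minus strand) gave 4.46, 5.58 and 6.11 CPM in WT medium and 9.94, 10.9 and 9.56 CPM in WT LPS. In *Scnn1b*-Tg it gave 29.7, 12.1 and 5.81 CPM in medium and 43.9, 16.8 and 10.2 CPM with LPS. The WT groups did not overlap and the *Scnn1b*-Tg groups did, although each of 6 pools rose, by 1.39-fold to 2.23-fold. With groups compared, the log2 fold change was 0.87 in WT (SE 0.46, edgeR adjusted p = 0.193) and 0.58 in *Scnn1b*-Tg (SE 0.45, edgeR adjusted p = 0.359). With each pool compared with itself (pool as a block), it was 0.92 in WT (SE 0.12, edgeR adjusted p = 7.28e-04) and 0.61 in *Scnn1b*-Tg (SE 0.12, edgeR adjusted p = 0.00394). With an estimated correlation within pools (voom), the adjusted p was 0.0409 in WT and 0.101 in *Scnn1b*-Tg. The WT rise was also called by edgeR with only the 2 WT groups (adjusted p = 0.00603), without the WT medium library of pool 18 (log2 fold change 1.51, 0.0481) and without both *Scnn1b*-Tg libraries of pool 17 (0.0454).

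*H2-Eb1* (chr17:34305867-34316674, plus strand) gave 2.97, 2.93 and 3.23 CPM in WT medium against 5.25, 5.27 and 5.02 CPM in WT LPS. In *Scnn1b*-Tg it gave 12.3, 5.57 and 3.46 CPM in medium against 22.0, 9.95 and 5.18 CPM with LPS. The WT libraries were tight and clearly separated, and each of 6 pools rose, by 1.50-fold to 1.80-fold. Between groups the log2 fold change was 0.75 in WT (SE 0.40, edgeR adjusted p = 0.194) and 0.78 in *Scnn1b*-Tg (SE 0.39, edgeR adjusted p = 0.145). With the pool as a block, the edgeR adjusted p was 0.00111 in WT (log2 fold change 0.77) and 7.93e-04 in *Scnn1b*-Tg (log2 fold change 0.76). With an estimated correlation within pools (voom), the adjusted p was 0.0667 in WT and 0.0279 in *Scnn1b*-Tg. The rise was also called by edgeR in WT with only the 2 WT groups (adjusted p = 0.00924), and in *Scnn1b*-Tg without the LPS library of pool 19 (log2 fold change 1.09, 0.0451) or without both WT libraries of pool 18 (0.0423).

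*Cd74* (chr18:60803848-60812652, plus strand) gave 62.7, 107 and 96.9 CPM in WT medium and 96.0, 157 and 108 CPM in WT LPS. In *Scnn1b*-Tg it gave 373, 144 and 93.8 CPM in medium and 533, 164 and 122 CPM with LPS. Groups overlapped in both genotypes, and the step within a pool was the smallest among the chains and the invariant chain, 1.11-fold to 1.53-fold, yet upward in 6 of 6 pools. Between groups the edgeR adjusted p was 0.588 in WT (log2 fold change 0.37, SE 0.45) and 0.549 in *Scnn1b*-Tg (log2 fold change 0.39, SE 0.45). With the pool as a block it was 0.0119 in WT (log2 fold change 0.44, SE 0.10) and 0.0228 in *Scnn1b*-Tg (log2 fold change 0.36, SE 0.10). With an estimated correlation within pools (voom) neither was called, with an adjusted p of 0.292 in WT and 0.373 in *Scnn1b*-Tg.

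With the pool as a block, 6 of 7 members were called in WT, where 36.6% of all genes were, and 6 of 7 in *Scnn1b*-Tg, where 42.1% were. These were the 4 genes above, higher, and the H2-DM genes, lower. *Ciita* was not called under this block, with an edgeR adjusted p of 0.108 in WT and 0.197 in *Scnn1b*-Tg. Markers of other cells and of AMs moved with LPS as well. In the edgeR test between groups, without the block, 7 of 12 AM markers fell and 3 rose in WT (15.7% and 15.2% of all genes). In *Scnn1b*-Tg 8 fell and 2 rose (17.8% and 18.8% of all genes). The summed dendritic cell markers, 8 of 10 of them in the table, went from 4.56 to 6.39 CPM in WT medium to 10.2 to 11.1 CPM in WT LPS, and the summed markers of monocytes and interstitial macrophages from 12.1 to 18.3 CPM down to 2.96 to 3.76 CPM. Of the dendritic cell markers, *Ccr7* and *Zbtb46* rose in WT, whereas *Batf3* (log2 fold change -1.61, edgeR adjusted p = 0.00304) and *Clec9a* (at or below 0.542 CPM, edgeR adjusted p = 0.0450) fell. Their part in the LPS steps of the class II genes was not tested.

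**Figure D2:**
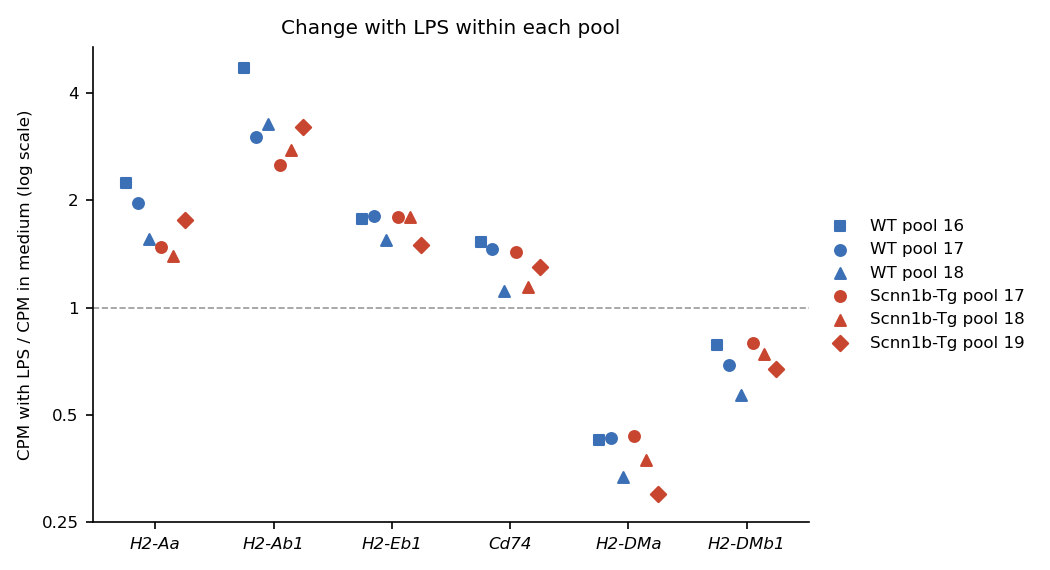
CPM with LPS divided by CPM in medium within each of 6 pools (vertical axis logarithmic, dashed line at no change), for the class II chains, the invariant chain and H2-DM. Every point of *H2-Aa*, *H2-Ab1*, *H2-Eb1* and *Cd74* lies above 1, and every point of *H2-DMa* (0.300 to 0.437) and *H2-DMb1* (0.569 to 0.793) lies below 1. The points of *H2-Ab1* (2.50 to 4.68) lie above those of *H2-Aa*, *H2-Eb1* and *Cd74*.

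The chaperone genes moved the other way. *H2-DMa* (chr17:34119541-34139101, plus strand) gave 41.1, 40.1 and 49.2 CPM in WT medium and 17.5, 17.3 and 16.5 CPM in WT LPS. In *Scnn1b*-Tg it gave 43.0, 52.6 and 49.1 CPM in medium and 18.8, 19.7 and 14.7 CPM with LPS. Medium and LPS libraries were widely separated in both genotypes, with a drop of 2.53-fold in WT (log2 fold change -1.34, SE 0.13, edgeR adjusted p = 1.68e-05) and 2.71-fold in *Scnn1b*-Tg (log2 fold change -1.44, SE 0.13, edgeR adjusted p = 7.23e-06). Its exons share 360 bp with *Brd2* on the opposite strand, and the reads were aligned as unstranded, so reads from that stretch cannot be assigned. *Brd2* rose with LPS (log2 fold change 0.45 in WT, edgeR adjusted p = 0.00420, and 0.37 in *Scnn1b*-Tg, edgeR adjusted p = 0.00939), against the direction of *H2-DMa*.

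*H2-DMb1* (chr17:34153072-34160230, plus strand) gave 35.7, 34.6 and 42.9 CPM in WT medium and 28.0, 24.0 and 24.4 CPM in WT LPS. In *Scnn1b*-Tg it gave 40.1, 42.9 and 44.8 CPM in medium and 31.8, 31.8 and 30.2 CPM with LPS. The groups did not overlap in either genotype, and the drop was 1.48-fold in WT (log2 fold change -0.56, SE 0.10, edgeR adjusted p = 0.00132) and 1.36-fold in *Scnn1b*-Tg (log2 fold change -0.44, SE 0.10, edgeR adjusted p = 0.00450). Without both libraries of *Scnn1b*-Tg pool 19, the latter call was lost (log2 fold change -0.38, edgeR adjusted p = 0.0687). Of the 50-base words in its transcripts, 22.7% also occur in *H2-DMb2*, a near copy at only 0.677 to 1.91 CPM that was lower with LPS as well (log2 fold change -0.82 in WT, edgeR adjusted p = 0.0397, and -0.84 in *Scnn1b*-Tg, edgeR adjusted p = 0.0278).

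*Ciita* (chr16:10480059-10528418, plus strand) was near the floor. It had 10, 0 and 0 counts in WT medium, 10, 46 and 10 counts in WT LPS, 27, 10 and 13 counts in *Scnn1b*-Tg medium, and 59, 37 and 48 counts in *Scnn1b*-Tg LPS. The LPS libraries of *Scnn1b*-Tg lay above those in medium, at 0.704 to 1.04 CPM against 0.190 to 0.462 CPM. In CPM the level was higher with LPS in 6 of 6 pools. In WT pool 16, however, the counts were 10 in both libraries, so its step came from scaling to library size alone. WT pools 17 and 18 started at 0 counts. The edgeR adjusted p was 0.0551 in WT and 0.139 in *Scnn1b*-Tg, and at these counts the fitted fold depends on the prior count. The call depended on the method. DESeq2 called *Ciita* higher in WT (adjusted p = 0.0106) and not in *Scnn1b*-Tg (0.0782). With an estimated correlation within pools (voom), it was called in both genotypes (adjusted p = 0.0334 and 0.0251). With edgeR it was called in *Scnn1b*-Tg with only the 2 groups (adjusted p = 0.0148) or without both WT libraries of pool 16 (0.0256). In WT it was called by edgeR without the medium library of pool 16 (adjusted p = 0.00406), without its LPS library (0.0396) or without both (0.00227), and without that medium library the remaining WT medium libraries are at 0 counts. Its exons share 329 bp with *Dexi* on the other strand, which ran from 8.50 to 12.5 CPM and was not called with LPS (log2 fold change -0.05 in WT, edgeR adjusted p = 0.786, and 0.01 in *Scnn1b*-Tg, edgeR adjusted p = 0.962).

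The sizes of the LPS steps were compared between 6 pairs of members by an exact two-sided sign-flip permutation test over the 6 pools, on log2(CPM + 0.5); the pairs were chosen after the values were seen. The rise of *H2-Ab1* exceeded that of its alpha chain partner *H2-Aa* by 0.90 ± 0.18 log2 units (SD, n = 6 pools, exact p = 0.0312, adjusted p = 0.0375), in 6 of 6 pools. It exceeded that of *H2-Eb1* by 0.94 ± 0.34 and that of *Cd74* by 1.23 ± 0.29 log2 units (SD, n = 6, exact p = 0.0312 each, adjusted p = 0.0375). The rise of *H2-Aa* exceeded that of *Cd74* by 0.33 ± 0.16 log2 units (SD, n = 6, exact p = 0.0312, adjusted p = 0.0375). *H2-DMa* fell further than *H2-DMb1*, by 0.87 ± 0.17 log2 units (SD, n = 6, exact p = 0.0312, adjusted p = 0.0375). *H2-Aa* and *H2-Eb1* differed by 0.04 ± 0.27 log2 units, with pools from -0.32 to 0.35 (n = 6, exact p = 0.750). The smallest p that 6 pools allow is 0.0312, and a pair that differs in the same direction in every pool must reach it. As the pairs were picked with the values in view, the adjustment over these 6 pairs does not cover that choice. These p-values therefore only describe the order within pools.

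The next question was whether AMs from the mucus-obstructed lung differ in class II transcripts. The 3 class II chains and *Cd74* stood high in *Scnn1b*-Tg pool 17, less so in pool 18, and at the WT level in pool 19, in medium and with LPS alike. H2-DM showed no such grading. In medium, pool 17 held 5.51 times the WT mean of *H2-Aa*, pool 18 held 2.25 times and pool 19 held 1.08 times. The corresponding ratios were 5.16, 1.97 and 1.19 for *H2-Ab1*. They were 4.03, 1.83 and 1.13 for *H2-Eb1* and 4.20, 1.61 and 1.05 for *Cd74*. With LPS the order of pools was the same for each of these 4 genes, from 4.24 to 1.00 times the WT mean for *H2-Eb1* and from 4.43 to 1.02 times for *Cd74*. The H2-DM genes stayed between 0.863 and 1.25 times the WT mean in every *Scnn1b*-Tg library.

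**Figure D3:**
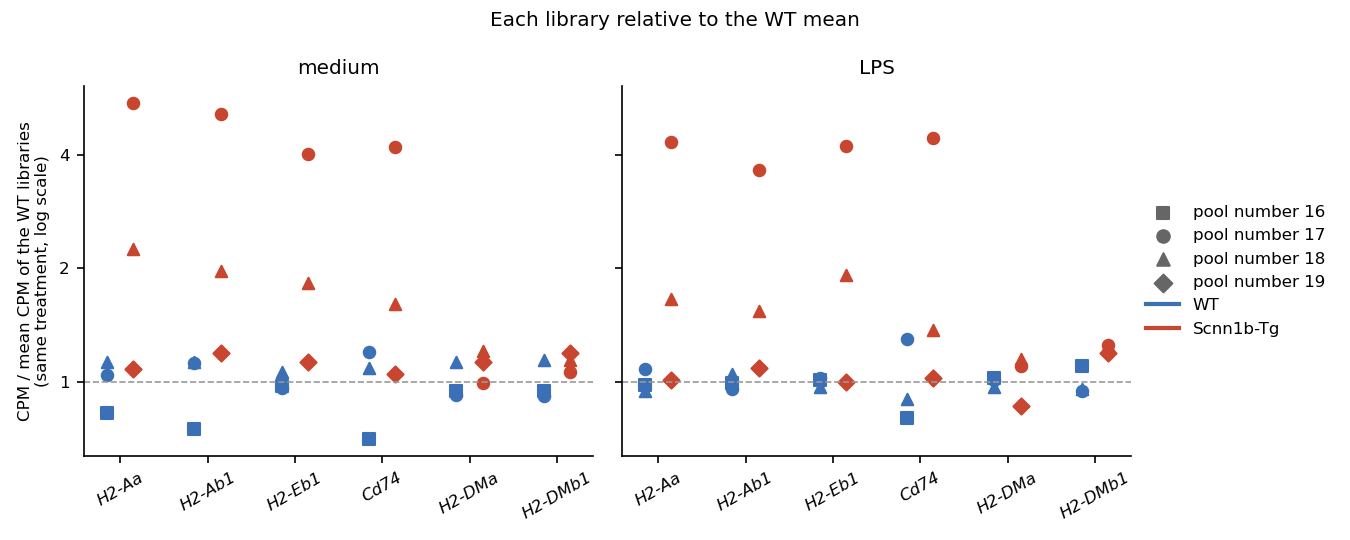
Each library's CPM divided by the mean of the 3 WT libraries of the same treatment (vertical axes logarithmic, dashed line at the WT mean), in medium on the left and with LPS on the right. For the class II chains and *Cd74*, *Scnn1b*-Tg pool 17 lies at 3.66 to 5.51, pool 18 at 1.37 to 2.25 and pool 19 at 1.00 to 1.19, while *H2-DMa* and *H2-DMb1* show no such grading.

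Against this spread, edgeR called none of the 7 members between genotypes. In medium 0 of 7 passed in edgeR, where 0.262% of all genes did, and with LPS 0 of 7 passed, where 0.0510% did. At an unadjusted p below 0.05 and higher in *Scnn1b*-Tg stood 5 of 7 members in medium (all genes 7.08%) and 5 of 7 with LPS (all genes 4.33%). DESeq2 called 1 of 7 higher in medium, *H2-Eb1* (log2 fold change 1.28, DESeq2 adjusted p = 0.0445), where it called 2.02% of all genes higher, and 0 of 7 with LPS, where it called 1.06%. The log2 fold change in medium was 1.58 for *H2-Aa* (SE 0.47, edgeR adjusted p = 0.195) and 1.49 for *H2-Ab1* (SE 0.44, edgeR adjusted p = 0.195). It was 1.30 for *H2-Eb1* (SE 0.40, edgeR adjusted p = 0.215) and 1.22 for *Cd74* (SE 0.45, edgeR adjusted p = 0.294). With LPS the lowest adjusted p of the members was 0.395, for *H2-Eb1* (log2 fold change 1.33, SE 0.40, edgeR).

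For the class II chains and *Cd74* the difference was largest in pool 17. This pool was left out after it was seen to be the highest, so a smaller difference was fixed by that choice. Without the 2 libraries of pool 17 the log2 fold change in medium was 0.69 for *H2-Aa*, 0.54 for *H2-Ab1*, 0.55 for *H2-Eb1* and 0.42 for *Cd74*. With fewer pools, 0 of 7 members stood at an unadjusted edgeR p below 0.05 in medium (3.82% of all genes, higher) or with LPS (2.62%). Within batch 1, where pool 17 faced 2 WT pools, the medium difference of *H2-Aa* was 2.46 log2 units. Within batch 2, where pools 18 and 19 faced 1 WT pool, it was 0.43 log2 units. *H2-Ab1* behaved likewise, with 2.43 and 0.43 log2 units. *Ciita* did not: its log2 fold change, 2.69 in medium (SE 1.00, edgeR adjusted p = 0.299) and 1.68 with LPS (SE 0.86, edgeR adjusted p = 0.828), was 3.4 and 2.45 without the libraries of pool 17, on counts near the floor. The higher batch 1 value of the class II chains therefore cannot be told apart from that of a particular pool.

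The ranges of 3 of 7 members (*H2-Ab1*, *H2-Eb1* and *Ciita*) did not overlap between genotypes in medium, against 18.4% of all genes, and those of 2 of 7 (*H2-Ab1* and *H2-DMb1*) did not overlap with LPS, against 9.11%. For *H2-Ab1* the gap was narrow, with the lowest *Scnn1b*-Tg library at 12.3 CPM and the highest WT library at 11.6 CPM in medium. That of *H2-Eb1* was narrow too, at 3.46 against 3.23 CPM. The lowest *Scnn1b*-Tg and the highest WT medium library of *Ciita* both held 10 counts, so its gap came from scaling to library size alone. For *H2-DMb1* with LPS, the 3 *Scnn1b*-Tg libraries at 30.2 to 31.8 CPM lay above the WT range of 24.0 to 28.0 CPM (log2 fold change 0.27, SE 0.10, edgeR adjusted p = 0.612).

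The spread among the *Scnn1b*-Tg pools was itself large for the class II chains and *Cd74*. In medium the highest *Scnn1b*-Tg library held 5.11 times the lowest for *H2-Aa*, a ratio reached by 27 of 9101 genes with a mean of at least 5 CPM (0.297%). The ratio was 4.32 for *H2-Ab1* (reached by 0.450% of genes), 3.98 for *Cd74* (0.538%) and 3.56 for *H2-Eb1* (0.648%), where the median gene had a ratio of 1.2. With LPS the 4 ratios ran from 3.36 to 4.36 and were reached by 0.374% to 0.747% of genes. In the WT groups the same 4 genes gave ratios of 1.05 to 1.71. *H2-DMa* and *H2-DMb1* had ratios of 1.05 to 1.34 in the *Scnn1b*-Tg groups. These shares are a description of 3 pools.

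**Figure D4:**
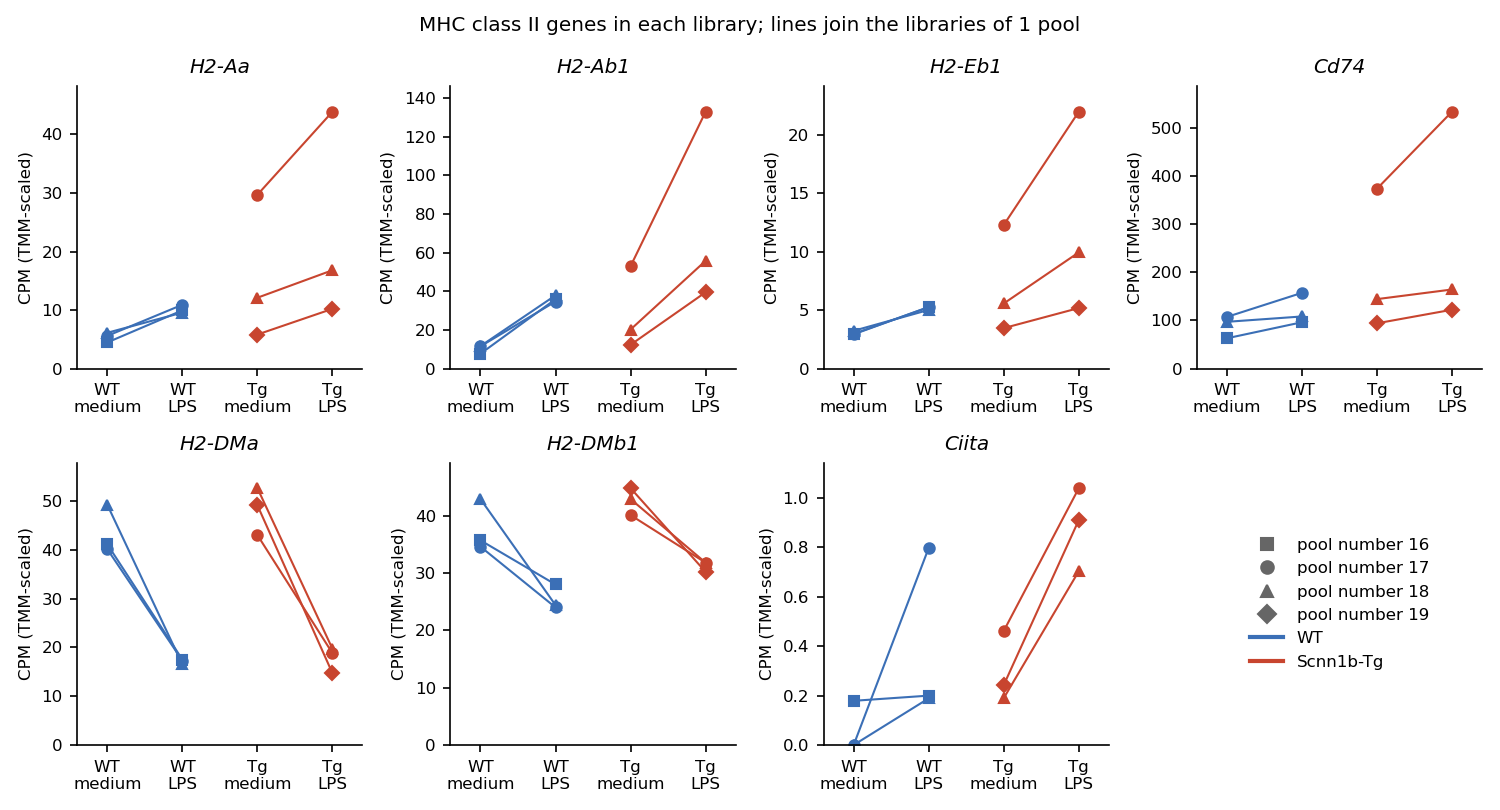
CPM (TMM-scaled, axes from 0) of the 7 genes in every library; marker shapes give the pool number, colours the genotype, and lines join the medium and LPS libraries of a pool. The red lines of *H2-Aa*, *H2-Ab1*, *H2-Eb1* and *Cd74* keep the order pool 17, 18, 19 and rise, the lines of *H2-DMa* and *H2-DMb1* fall, and *Ciita* stays at or below 1.04 CPM.

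Marker sums of other cells differed between pools too, not all in the order of the class II genes. The summed level of the 6 measured neutrophil markers had that order, with 37.7, 29.4 and 25.6 CPM in *Scnn1b*-Tg medium (pools 17, 18 and 19) against 17.1 to 20.9 CPM in WT medium. With LPS it was 22.0, 21.3 and 16.5 CPM in *Scnn1b*-Tg against 12.0 to 15.3 CPM in WT. Of these markers only *Mmp8* had the order itself in medium, at 15.5, 11.3 and 6.74 CPM. *S100a8*, *Csf3r* and *Cxcr2* did not, and *S100a9* and *Ngp* lay at or under the floor in 12 of 12 libraries. The T and NK cell sum had the order too, at 1.42, 0.894 and 0.766 CPM in *Scnn1b*-Tg medium against 1.29 to 1.84 CPM in WT medium. It kept the order with LPS, at 1.55, 1.03 and 0.380 CPM against 0.453 to 1.86 CPM in WT. Of its 8 genes, 4, 7 and 6 lay at or under the floor in the *Scnn1b*-Tg medium libraries. The epithelial sum was lower in *Scnn1b*-Tg medium, at 46.5, 82.3 and 49.9 CPM against 94.7 to 115 CPM in WT medium. With LPS it had the order, at 73.2, 54.5 and 39.5 CPM against 86.1 to 130 CPM in WT. The monocyte and interstitial macrophage sum had the order with LPS, at 4.14, 4.13 and 3.61 CPM against 2.96 to 3.76 CPM in WT. In medium it did not, at 12.8, 18.2 and 14.7 CPM against 12.1 to 18.3 CPM in WT. The summed level of the 8 measured dendritic cell markers was highest in pool 18, with 7.67, 10.1 and 6.52 CPM in *Scnn1b*-Tg medium and 4.56 to 6.39 CPM in WT medium. With LPS it was 20.8, 20.1 and 13.7 CPM in *Scnn1b*-Tg and 10.2 to 11.1 CPM in WT. In *Scnn1b*-Tg medium most of that sum was *Ccr7*, a chemokine receptor of maturing antigen-presenting cells, at 5.07, 5.80 and 4.17 CPM in *Scnn1b*-Tg medium against 1.85 to 2.33 CPM in WT medium (log2 fold change 1.32, edgeR adjusted p = 0.0391). Of the 8 markers, 3 lay at or under the floor in each *Scnn1b*-Tg medium library, and *Flt3* and *Itgae* lay there in 11 and 9 of 12 libraries. The summed level of the 5 measured B cell markers was 121, 104 and 126 CPM in *Scnn1b*-Tg medium and 93.3 to 122 CPM in WT medium, nearly all of it *Cd22*. With LPS the B cell sum was 118, 82.2 and 91.1 CPM in *Scnn1b*-Tg, again without the order. The summed level of the 12 AM markers was higher in *Scnn1b*-Tg medium, at 14000 to 17600 CPM against 12000 to 12800 CPM in WT medium. The median log2 fold change was 0.30 and 0 of 12 were called. Most of the sum was *Chil3*, at 11500 to 14400 CPM against 9550 to 10300 CPM in WT medium. With LPS the AM sum was 10600, 11400 and 15800 CPM in *Scnn1b*-Tg. *Krt79* was lower, at 14.6, 18.5 and 55.4 CPM in *Scnn1b*-Tg medium against 47.6 to 63.9 CPM in WT medium (log2 fold change -1.30, edgeR adjusted p = 0.377). *Marco* (log2 fold change -0.35) and *Cidec* (-0.08) had lower values as well. *Krt79* was singled out after its values were seen. Their part in the class II spread was not tested.

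The LPS response of *Scnn1b*-Tg AMs was then set against that of WT AMs. For 0 of 7 members did edgeR call a difference between the responses, as for 0% of all genes, and 0 of 7 stood at an unadjusted p below 0.05, where 5.79% of all genes did. DESeq2 called 0 of 7 as well, and 0.561% of all genes. The difference of the responses (*Scnn1b*-Tg minus WT) was -0.37 log2 units for *H2-Ab1* (SE 0.60), -0.29 for *H2-Aa* (SE 0.64), 0.03 for *H2-Eb1* (SE 0.56) and 0.01 for *Cd74* (SE 0.63). It was -0.10 log2 units for *H2-DMa* (SE 0.18) and 0.12 for *H2-DMb1* (SE 0.14). With the pool as a block the SEs of the chains and *Cd74* were smaller, and the difference was -0.35 log2 units for *H2-Ab1* (SE 0.18, edgeR adjusted p = 0.596), -0.31 for *H2-Aa* (SE 0.17, edgeR adjusted p = 0.625), -0.01 for *H2-Eb1* (SE 0.15) and -0.08 for *Cd74* (SE 0.14).

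Factors of the class II promoter were above the floor in every library. Of 7 such genes, 3 rose and 0 fell in each genotype, where 15.2% of all genes rose and 15.7% fell in WT and 18.8% rose and 17.8% fell in *Scnn1b*-Tg, with a median log2 fold change of 0.30 in both, against 0.00 in WT and -0.02 in *Scnn1b*-Tg over all genes. *Rfx5*, a subunit of the RFX complex, rose most, with a log2 fold change of 1.13 in WT (edgeR adjusted p = 4.68e-04) and 0.80 in *Scnn1b*-Tg (edgeR adjusted p = 0.00331). *Nfya*, a subunit of NF-Y, rose by 0.50 in WT (edgeR adjusted p = 0.00271) and 0.32 in *Scnn1b*-Tg (edgeR adjusted p = 0.0251). *Rfxap*, also of the RFX complex, was called in *Scnn1b*-Tg with 0.32 (edgeR adjusted p = 0.0417), and in WT its value was 0.30 (edgeR adjusted p = 0.0604). The third call in WT was *Nfyb*, with 0.33 (edgeR adjusted p = 0.0456) and overlapping groups. *Rfxank*, *Creb1* and *Nfyc* gave -0.21 to 0.03 and were not called in either genotype.

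Of 10 genes that act on *Ciita* (among them the interferon gamma receptor, its kinases, IRFs and repressors), 5 rose and 1 fell in each genotype, against 15.2% and 15.7% of all genes in WT and 18.8% and 17.8% in *Scnn1b*-Tg. The 1 that fell was *Ifngr1*, a chain of the interferon gamma receptor, with -0.39 in WT and -0.36 in *Scnn1b*-Tg on the log2 scale (edgeR adjusted p = 0.00108 and 0.00151). *Jak2*, the kinase bound to that receptor, rose 4.11-fold in WT and 4.67-fold in *Scnn1b*-Tg (edgeR adjusted p = 6.90e-08 and 3.07e-08). *Socs1*, an inhibitor of JAK signalling, rose 6.27-fold and 8.38-fold (edgeR adjusted p = 1.54e-06 and 3.95e-07). *Prdm1*, which encodes the *Ciita* repressor BLIMP1, rose 3.45-fold in WT and 3.36-fold in *Scnn1b*-Tg (edgeR adjusted p = 1.68e-06 and 1.33e-06). *Irf1*, an activator of *Ciita*, rose 2.15-fold in WT and 3.03-fold in *Scnn1b*-Tg (edgeR adjusted p = 1.11e-05 and 5.94e-07). Activators and repressors of *Ciita* were both among the genes that rose.

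Of 11 genes for processing of antigen and invariant chain, 2 rose and 7 fell in each genotype, where 15.2% of all genes rose and 15.7% fell in WT and 18.8% rose and 17.8% fell in *Scnn1b*-Tg. The median log2 fold change was -0.45 in WT and -0.50 in *Scnn1b*-Tg. *Lgmn*, an asparagine endopeptidase of the endosome, fell most, with -2.01 in WT and -2.13 in *Scnn1b*-Tg (edgeR adjusted p = 5.08e-08 and 2.96e-08). *Ctsd*, cathepsin D, gave -1.50 and -1.67 (edgeR adjusted p = 1.06e-07 and 3.88e-08). *Sppl2a*, the intramembrane protease that clears the last fragment of CD74, rose by 0.98 and 1.06 (edgeR adjusted p = 4.40e-05 and 1.70e-05). The other measured list of class II genes held 4 genes, of which 2 were tested and 1 (*H2-DMb2*) fell. Of 2 ubiquitin ligases of class II, *March1* and *March8*, only *March8* was called, lower in *Scnn1b*-Tg (log2 fold change -0.30, edgeR adjusted p = 0.0338); it is named here after its value was seen.

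**Figure D5:**
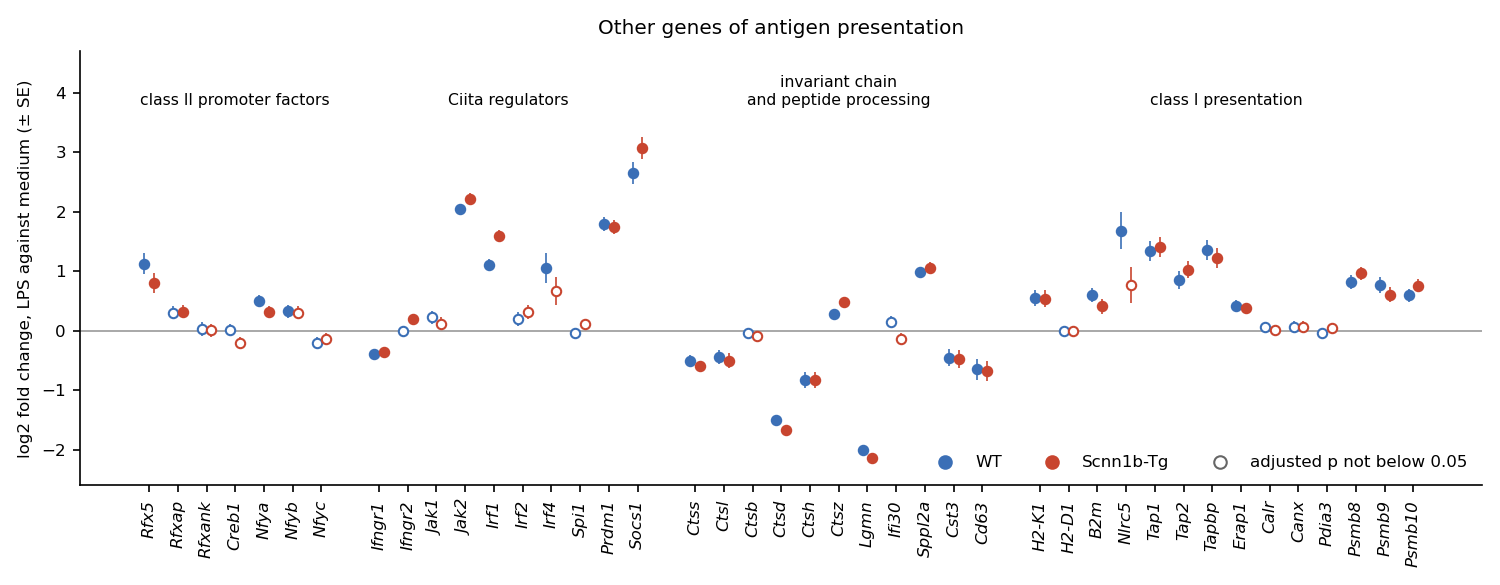
Log2 fold change with LPS against medium (± SE of the edgeR fit over 12 libraries) for genes around the class II pathway, in WT and *Scnn1b*-Tg AMs; filled points passed an adjusted p of 0.05. *Jak2*, *Prdm1* and *Socs1* stand high among the *Ciita* regulators, *Lgmn* and *Ctsd* stand low among the processing genes, and no class I gene was called lower.

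Class I presentation, which shows peptides from inside the cell to CD8 T cells, served as the nearest comparison. Of 14 class I genes, 10 rose in WT (15.2% of all genes) and 9 in *Scnn1b*-Tg (18.8% of all genes) with LPS, and none was called lower (15.7% and 17.8% of all genes). *Tap1*, a peptide transporter, rose 2.54-fold and 2.66-fold (edgeR adjusted p = 1.35e-04 and 6.85e-05). *Tapbp*, which bridges the transporter and class I, rose 2.56-fold and 2.32-fold (edgeR adjusted p = 1.46e-04 and 2.30e-04), and *Psmb8*, an immunoproteasome subunit, rose 1.77-fold and 1.97-fold (edgeR adjusted p = 2.56e-04 and 5.76e-05). No gene of the promoter, *Ciita* regulator, processing, ubiquitin ligase or class I lists was called between genotypes or for the difference of responses by edgeR.

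The genes whose profile over the 12 libraries was most like the mean profile of *H2-Aa*, *H2-Ab1*, *H2-Eb1* and *Cd74* were *Slbp* (Pearson r = 0.898), *Fgd6* (0.886), *Fam49a* (0.884), *Gga2* (0.847) and *Mfhas1* (0.830), out of 9095 genes with a mean of at least 5 CPM. *Slbp*, which encodes the stem-loop binding protein of histone mRNAs, gave 53.5, 32.7 and 28.1 CPM in *Scnn1b*-Tg medium and 33.1 to 34.2 CPM in WT medium, so it shared the high pool 17 but not the intermediate pool 18. *Fam49a* gave 49.8, 43.2 and 33.0 CPM in *Scnn1b*-Tg medium and 23.9 to 26.2 CPM in WT medium, with all 3 *Scnn1b*-Tg pools above WT. The closest to *Ciita* were *Slc20a2* (r = 0.913), *Cpeb1* (0.871), *Zbtb11* (0.868), *Sec62* (0.838) and *Mtmr7* (0.835). The 12 libraries come from 6 pools and 2 batches, and the first profile is dominated by pool 17, so these coefficients are descriptions only.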

How the data were processed

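Per the labels and the study's methods, the authors made libraries from total RNA with the SMART-Seq v4 kit (paired-end, 125 bp), ran the nf-core RNAseq pipeline v1.2, aligned to mm10 with HISAT2 as unstranded, and quantified GENCODE M20 genes with StringTie. The authors deposited 1 table of gene counts, which prepDE derives from coverage: among values from 1 to 30, 55.3% left a remainder of 0 or 3 on division by 5, and 40.0% would do so if values were spread evenly. Steps of this kind arise where 1 read adds 2.5 counts, so the floor of 3 reads was set at 8 counts, and no counting intervals are given.

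Symbols and positions came from GENCODE M21 (98.0% of 20551 identifiers matched). Genes were filtered with filterByExpr (minimum count 10, total 15), scaled by TMM and fitted in edgeR 4.0.16 (R 4.3.3) by the quasi-likelihood test with group and batch over 12 libraries; adjusted p-values are Benjamini-Hochberg over 13729 genes with a threshold of 0.05. SEs were derived from the log2 fold change and the F statistic. CPM are TMM-scaled. Within-batch differences are on log2(CPM + 0.5), and likeness is Pearson's r of log2 CPM with a prior count of 2. The fit was tested on simulated counts. Alternatives were DESeq2 1.42.0, limma 3.58.1 (voom), other filters and scalings, blocks, and leaving out each library; leaving out whole pools was added after the values were seen.

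Replicates are libraries from pooled animals, and p-values measure the spread between these libraries. Deviations from the group means correlated between the medium and LPS libraries of the same number by 0.14 to 0.34 in 6 of 6 pools. WT and *Scnn1b*-Tg libraries that shared only number and treatment correlated by 0.11 to 0.26. After removal of the batch, the correlations within pools ran from -0.24 to 0.15. These values therefore do not establish pairing, which the results with the pool as a block and those by pool assume. The 7 members and all gene lists were chosen with earlier results of these data known. Named from each list were up to 3 genes per comparison with the smallest adjusted p and no overlap between groups; likeness used the 5 highest r. Some genes of the lists are not reported here.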

Additional observations from a re-analysis of the deposited data

How the results depend on the processing

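Across 927 re-computed member values, 860 kept direction and call, 7 lost the call, 23 gained it and 37 turned sign, all of the last between groups or responses that were not called in the first place. The cause of these shifts was not tested unless stated. Members called with LPS rose from 3 to 6 in each genotype with the replicate block (pool), to 5 and 5 with voom and the pool as a random effect (*Ciita* in and *Cd74* out in both, *H2-Eb1* out in WT and *H2-Aa* out in *Scnn1b*-Tg), and to 5 in WT with only the 2 groups compared; leaving out libraries or pools gave 2 to 4 in each genotype. The call of *H2-Ab1* in *Scnn1b*-Tg was also lost without the batch term (edgeR adjusted p = 0.0575). *H2-DMa* was called lower in both genotypes under each of 27 alternatives, from -1.40 to -1.21 in WT and from -1.56 to -1.29 in *Scnn1b*-Tg on the log2 scale.

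DESeq2 called 1 member higher in *Scnn1b*-Tg medium. Over all genes, edgeR called 36 between genotypes in medium, 7 with LPS and 0 for the difference of responses (1784, 931 and 795 at an unadjusted p below 0.05), and DESeq2 called 501, 146 and 77. In medium this count was 20 without the low-count filter, 61 with counts divided by 5, 19 without the batch term and 12 with only the 2 groups. With LPS it was 11 with counts divided by 5, 1 without the batch term, 12 with the replicate block (number in place of batch), 11 with voom and 2 with only the 2 groups. Leaving out libraries or pools gave 1 to 29 in medium, 2 to 13 with LPS and 0 to 2 for the difference of responses.

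The difference of responses of *Cd74* turned from 0.01 to -0.00 with a mean of at least 50 counts, to -0.01 with counts divided by 5, to -0.01 without the batch term, to -0.08 with the replicate block and to -0.09 with voom; that of *H2-Eb1* turned from 0.03 to -0.02 with counts divided by 5, -0.01 with the block and -0.04 with voom. With libraries or pools left out, the difference of responses ran from -0.91 to 0.20 for *H2-Aa*, -0.91 to 0.20 for *H2-Ab1*, -0.43 to 0.41 for *H2-Eb1*, -0.22 to 0.04 for *H2-DMa*, -0.02 to 0.23 for *H2-DMb1*, -0.63 to 0.42 for *Cd74* and -5.92 to 0.31 for *Ciita*. Likewise the genotype difference of *H2-DMa* with LPS ran from -0.10 to 0.15, and the LPS response of *Cd74* in *Scnn1b*-Tg from -0.18 to 0.81, below 0 only without the LPS library of pool 17. Divided by the longest transcript in place of merged exons, WT medium levels were 1.67 for *H2-Aa*, 8.48 for *H2-Ab1*, 1.83 for *H2-Eb1*, 21.7 for *H2-DMa* and 26.9 CPM per kb for *H2-DMb1*. The block changed no other call than those of *H2-Aa*, *H2-Eb1* and *Cd74* with LPS.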
